A study of Rattus norvegicus with 9 samples.

Results

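The genes described here belong to the Hippo pathway, a kinase cascade that limits organ size, and to the transcriptional output it controls. They were chosen by name, as a list of 10 genes, and 9 of them have a probe set in the platform annotation: Yap1, Wwtr1, Tead1, Nf2, Lats2, Amotl2, Ccn1, Ccn2 and Ankrd1. Lats1 is not named in that annotation and was not analysed here. The 9 genes stand among 18166 named genes on the array, and all 9 were bright enough to be among the 15793 that were tested.

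RNA was measured on 9 whole-transcript Affymetrix arrays of laser-microdissected rat liver, 3 arrays for each of 3 groups. All 3 groups came from livers of female F344 rats given 2 injections of retrorsine, an alkaloid that blocks division in most hepatocytes, at 30 mg/kg and 2 weeks apart, with partial hepatectomy 4 weeks after the second. Such livers regain mass through foci of small, hepatocyte-like progenitor cells, abbreviated SHPCs. The first group held hepatocytes lying beside SHPC clusters, the second SHPC clusters, both from livers without transplantation. The third held SHPC clusters of livers that had received sorted Thy1+ cells, from donors carrying dipeptidyl peptidase IV (DPPIV+), through the spleen; the labels call the recipients DPPIV−. For the hepatocyte arrays the description label speaks of transplantation, while the cell type label gives hepatocytes without it, and the cell type label was followed. The age of the rats, the number of animals, the time of sampling and which arrays share an animal are not given in the sources used here. The p-values therefore measure only the spread between these arrays. Clusters and hepatocytes were recognised by their look in stained sections 7 µm thick, so a capture can hold other cells of the tissue.

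In the Hippo pathway, the scaffold protein merlin, made by Nf2, and its partners activate a cassette of kinases that ends in the LATS kinases. LATS kinases phosphorylate the coactivators YAP, made by Yap1, and TAZ, made by Wwtr1, which are then held in the cytoplasm or degraded. When the cascade is quiet, YAP and TAZ enter the nucleus, bind TEAD factors such as that made by Tead1, and switch on targets that include Ccn1, Ccn2, Ankrd1 and Amotl2. In liver, high YAP activity is known for enlarging the organ and for pushing hepatocytes towards a progenitor-like or bile duct-like state. Much of this control acts on proteins and on their place in the cell, which RNA arrays do not measure.

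TEAD factors bind the hexamer GGAATG, read as CATTCC on the opposite strand, and the start regions of 4 of the genes hold it. RefSeq windows of assembly GRCr8, which run from 250 bases before a gene's start to 50 bases after it, were found for 7 of the 10 genes; Tead1, Lats2 and Ankrd1 had no entry in the table. The hexamer was searched on both strands and was present in Yap1, Ccn1, Ccn2 and Amotl2 and not in the windows of Wwtr1, Nf2 and Lats1, while 14.2% of all 33469 windows in the table held it. The windows are shown for these 4 genes because they carry the letters through which the coactivators can act on their targets, with each match in capitals.
Ccn2 (chr1:22624565-22624864, minus strand): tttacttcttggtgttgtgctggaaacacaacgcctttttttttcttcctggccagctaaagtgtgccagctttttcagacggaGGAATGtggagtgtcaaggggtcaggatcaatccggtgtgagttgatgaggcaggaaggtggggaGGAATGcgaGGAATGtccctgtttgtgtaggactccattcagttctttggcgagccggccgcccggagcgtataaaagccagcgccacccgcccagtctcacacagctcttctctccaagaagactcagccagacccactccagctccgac
Ccn1 (chr2:237225640-237225939, minus strand): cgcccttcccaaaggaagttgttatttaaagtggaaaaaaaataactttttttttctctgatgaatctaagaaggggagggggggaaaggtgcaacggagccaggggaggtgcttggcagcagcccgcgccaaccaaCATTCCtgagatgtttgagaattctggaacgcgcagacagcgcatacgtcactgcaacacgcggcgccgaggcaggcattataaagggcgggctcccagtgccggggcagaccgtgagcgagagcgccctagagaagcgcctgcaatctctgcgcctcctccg
Amotl2 (chr8:112182376-112182675, plus strand): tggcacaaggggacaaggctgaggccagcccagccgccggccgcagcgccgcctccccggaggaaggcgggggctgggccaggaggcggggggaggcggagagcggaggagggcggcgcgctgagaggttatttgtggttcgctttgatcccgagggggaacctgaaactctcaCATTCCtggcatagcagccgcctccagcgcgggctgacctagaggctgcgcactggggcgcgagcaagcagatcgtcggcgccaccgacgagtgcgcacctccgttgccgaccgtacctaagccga
Yap1 (chr8:13451388-13451687, minus strand): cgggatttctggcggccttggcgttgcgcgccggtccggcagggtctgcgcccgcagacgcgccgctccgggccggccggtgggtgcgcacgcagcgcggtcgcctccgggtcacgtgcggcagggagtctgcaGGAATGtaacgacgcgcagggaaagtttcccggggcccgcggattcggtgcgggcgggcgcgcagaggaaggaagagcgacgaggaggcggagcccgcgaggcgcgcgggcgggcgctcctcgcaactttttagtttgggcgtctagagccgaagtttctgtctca
The window of Ccn2 held 3 matches, which begin 166, 101 and 92 bases before the start. The match of Ccn1 begins 113 bases before its start, that of Amotl2 76 bases before and that of Yap1 116 bases before. The motif TGANTCA of AP-1, the dimer of FOS and JUN proteins that often works beside TEAD factors, does not overlap the hexamer; it was searched on both strands and was present in 0 of the 7 windows, against 7.33% of all windows. A match is a description of letters and shows no binding.

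Some facts of the whole series bear on every value. SHPC array 2 and hepatocyte array 2 stood apart, with median intensities of 24.1 and 23.0 on the linear scale against 19.6 to 20.6 on the other arrays, so results are given without these arrays where that matters. The hepatocyte markers Alb, Ttr, Serpina1, Cps1, Hnf4a and Fgb lay above the array's median on all 9 arrays, which shows hepatocytic RNA in every capture but does not tell SHPC clusters from hepatocytes. Markers of other cell types were also present. All 10 Kupffer cell markers, all 6 measured endothelial markers and 7 of 9 measured stellate cell markers exceeded the median on all 9 arrays. Of the 7 measured bile duct markers Krt7 did so on 9 arrays, Epcam on 8, Krt19 on 5, Spp1 on 2, and Sox9, Cftr and Sctr on 1 each. In bulk captures, fewer cells of a type and less RNA per cell cannot be told apart.

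Yap1 and Wwtr1 RNA, which code for the coactivators, did not pass the test in any comparison. Values below are log2 of the deposited intensity, on which 1 unit is a 2-fold difference. Yap1 lay at 7.15, 7.00 and 6.88 on hepatocyte arrays 1 to 3, at 7.07, 6.85 and 6.90 on SHPC arrays 1 to 3, and at 6.83, 6.94 and 6.75 on the arrays of transplanted livers. The 3 groups overlapped, and the highest and lowest of the 9 arrays were 1.32-fold apart. Its group means ran from 7.01 ± 0.13 in hepatocytes over 6.94 ± 0.12 in SHPCs to 6.84 ± 0.10 in SHPCs of transplanted livers (SD, n = 3 each), with neighbours in this order closer than their spread. Wwtr1 lay at 5.91, 5.71 and 6.05 in hepatocytes, at 5.95, 5.37 and 6.00 in SHPCs, and at 6.06, 6.07 and 5.95 in SHPCs of transplanted livers. SHPC array 2 was the low value, and without it the difference between the SHPC groups went from 0.25 to 0.05.

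Tead1, which codes for the DNA-binding partner of the coactivators, was at 6.10, 5.83 and 5.89 in hepatocytes, at 6.12, 5.94 and 6.24 in SHPCs, and at 6.02, 6.21 and 6.00 in SHPCs of transplanted livers. Both SHPC means, 6.10 ± 0.15 and 6.08 ± 0.12, lay above the hepatocyte mean of 5.94 ± 0.14 (SD, n = 3 each), but the arrays overlapped.

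The restraining arm of the pathway was represented by Nf2 and by the kinase gene Lats2. Nf2 was at 6.38, 6.09 and 5.99 in hepatocytes, at 5.98, 5.89 and 5.99 in SHPCs, and at 5.99 on each of the 3 arrays of transplanted livers. The hepatocyte arrays reached highest, through array 1, but their lowest value equalled that of SHPC array 3. The deposited value of Nf2 was the same number on 5 of the 9 arrays, so its spread of 0 in transplanted livers is not a measure of error; 51.9% of tested genes held at least 1 repeated value. Lats2 was at 6.24, 5.67 and 5.60 in hepatocytes, at 5.60, 5.59 and 5.80 in SHPCs, and at 5.97, 5.80 and 5.74 in SHPCs of transplanted livers. Hepatocyte array 1 held the highest value of both genes and of Yap1. Without that array the difference of SHPCs from hepatocytes in Lats2 went from −0.17 to 0.03, and that in Nf2 from −0.20 to −0.09.

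Among the target genes, Ccn1 and Ccn2 code for secreted matricellular proteins and are the most used readouts of YAP activity. Ccn1 was at 5.77, 6.13 and 5.56 in hepatocytes, at 5.85, 6.08 and 5.63 in SHPCs, and at 5.82, 5.97 and 5.57 in SHPCs of transplanted livers. Its spread lay within the groups, whose means of 5.82, 5.85 and 5.79 differed by less than any group's SD of 0.20 to 0.29. Ccn2 was at 5.32, 5.32 and 5.16 in hepatocytes, at 5.32, 5.12 and 5.12 in SHPCs, and at 5.32, 5.44 and 5.71 in SHPCs of transplanted livers. The higher Ccn2 values were those of transplanted arrays 2 and 3, while array 1 of that group held the same deposited number as SHPC array 1 and hepatocyte arrays 1 and 2.

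Ankrd1, whose product is an ankyrin repeat protein of muscle and of injured tissue, was at 3.48, 3.54 and 3.72 in hepatocytes, at 3.34, 3.81 and 3.45 in SHPCs, and at 3.30, 3.45 and 3.35 in SHPCs of transplanted livers. It lay below the median of the array on all 9 arrays, unlike the other 8 genes, so little signal stands behind its differences. Amotl2, which codes for an angiomotin-like junction protein that feeds back on YAP, was at 6.06, 6.62 and 6.07 in hepatocytes, at 6.06, 6.23 and 6.05 in SHPCs, and at 6.09, 6.07 and 5.74 in SHPCs of transplanted livers. Hepatocyte array 2, which stood apart, was the high value and the third array of transplanted livers the low one.

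**Figure D1:**
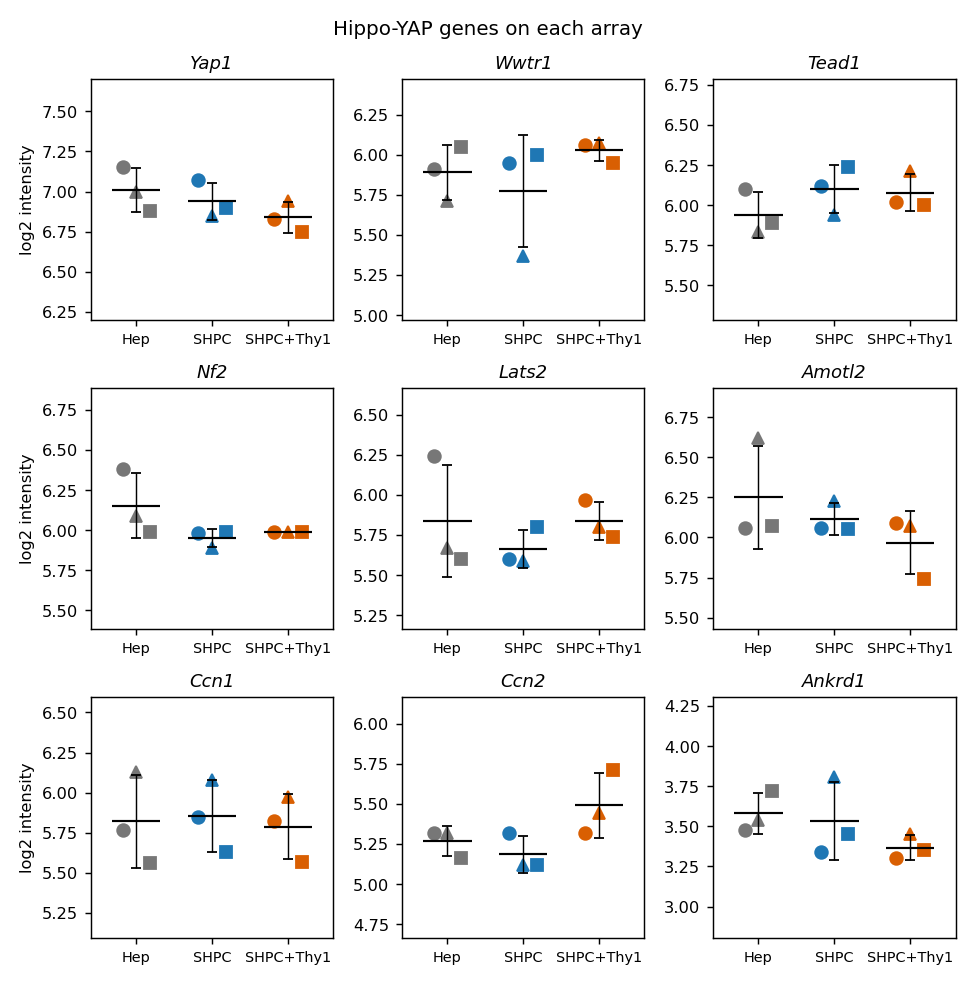
Log2 intensity of the 9 Hippo-YAP genes on each array, in hepatocytes (grey), SHPCs (blue) and SHPCs of transplanted livers (orange); circles, triangles and squares are arrays 1, 2 and 3, horizontal bars group means and whiskers the SD over 3 arrays. In each panel at least some groups overlap, and the 9 arrays of a gene span between 0.40 (Yap1) and 0.88 (Amotl2).

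The first question is whether the SHPC clusters of transplanted livers differ from those of livers without transplantation. None of the 9 genes passed in limma at an adjusted p under 0.05, and 0 did at an unadjusted p under 0.05, where 0.00633% of the 15793 genes passed after adjustment (1 gene) and 7.35% before it. No gene of the 9 had arrays that lay apart between these groups (15.8% of all genes did). Of the 9 genes 4 had a higher and 5 a lower mean in transplanted livers, where 53% of all genes were higher, with a median log2 change of −0.02 against 0.02 over all genes tested; the median size of a change was 0.15 for the 9 and 0.17 for all genes. Centring each array on its median added 0.103 to the all-gene median of this comparison; 7 of the 9 genes then had the higher mean, with Tead1 going from −0.02 to 0.08 and Ccn1 from −0.07 to 0.04. The 95% intervals of the 9 changes ran from −0.55 to 0.66 at their widest reach, which corresponds to 0.683-fold and 1.58-fold.

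The target Ccn2 had the smallest p of the 9 genes in this comparison. Its mean was 5.49 ± 0.20 in SHPCs of transplanted livers and 5.19 ± 0.11 in SHPCs (SD, n = 3 each), a difference of 0.30 ± 0.14 (SE; 95% interval −0.02 to 0.62; limma adjusted p = 0.696), and its arrays met at 1 shared value. The difference was 0.19 without transplanted array 3 and 0.27 without both arrays that stood apart. Beside it, markers of stellate cells, which also express Ccn2, were higher in transplanted livers in 8 of 8 tested genes, with a median of 0.28 and 0 of them passing. Their mean level over 9 measured markers was 5.80 to 5.95 on the arrays of transplanted livers, 5.26 to 5.77 in SHPCs and 5.50 to 5.92 in hepatocytes; Lum, the dimmest, lay at 1.43 to 1.91 and the other 8 above the median on at least 8 arrays. Endothelial markers were higher in 6 of 6 genes, with a median of 0.18 and 0 passing. Their mean level was 6.62 to 6.80 in transplanted livers against 6.22 to 6.65 in SHPCs. SHPC array 2, which stood apart, held the lowest mean of both marker sets. With tested markers centred on their gene means, stellate markers averaged 0.04, −0.49 and −0.03 on SHPC arrays 1 to 3. On the transplanted arrays they averaged 0.10, 0.27 and 0.18. Endothelial markers averaged −0.02, −0.38 and 0.05 against 0.02, 0.20 and 0.13. The part of stellate and endothelial cells in the Ccn2 difference was not tested.

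The other targets had lower means in transplanted livers. Ankrd1 differed by −0.17 ± 0.15, Amotl2 by −0.15 ± 0.18 and Ccn1 by −0.07 ± 0.19 (SE, limma adjusted p = 0.753, 0.802 and 0.921). The coactivator genes differed by −0.10 ± 0.13 for Yap1 and 0.25 ± 0.18 for Wwtr1 (SE, limma adjusted p = 0.819 and 0.722). Lats2 was at 0.17 ± 0.18, Nf2 at 0.04 ± 0.13 and Tead1 at −0.02 ± 0.14 (SE, limma adjusted p = 0.780, 0.941 and 0.969).

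**Figure D2:**
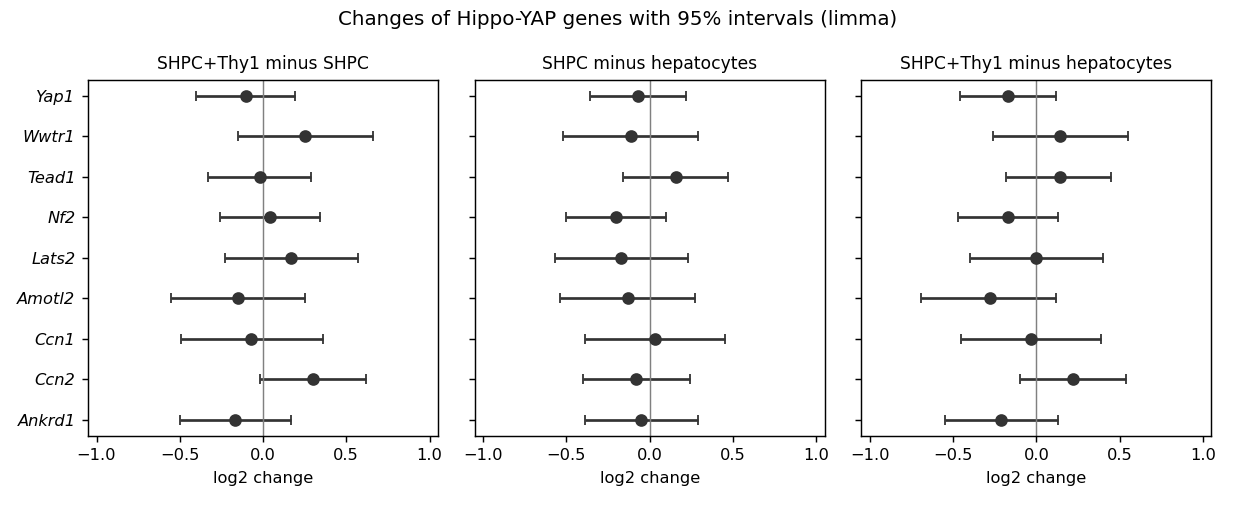
Log2 change of each of the 9 genes in the 3 comparisons, as limma estimates (points) with 95% intervals (bars) from the fit over all 9 arrays; the grey line marks 0. Every interval includes 0, with Ccn2 in the left panel, at 0.30 with an interval of −0.02 to 0.62, the nearest to leaving it.

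SHPC clusters were next compared with neighbouring hepatocytes of livers without transplantation. Here too 0 of the 9 genes passed in limma, with 0 at an unadjusted p under 0.05, where 0.0633% of all tested genes passed after adjustment (10 genes) and 4.12% before it. The labels state no pairing, though same-numbered arrays deviated together in this comparison, where both arrays that stood apart are number 2. The differences, SEs and adjusted p given for this comparison come from the fit without pairing. With the replicate number as a block 35 genes passed, or 77 in a blocked fit of these 6 arrays alone, again with 0 of the 9. The arrays of all 9 genes overlapped, where 5.22% of all genes lay apart. SHPCs had the higher mean in 2 of the 9 genes and the lower in 7, where 48.6% of all genes were higher, with a median of −0.08 against −0.01 over all genes. The extreme values were Tead1 at 0.16 ± 0.14 and Nf2 at −0.20 ± 0.13 (SE, both limma adjusted p = 1.00). Lats2, with −0.17 ± 0.18, and Amotl2, with −0.13 ± 0.18, rested on a single hepatocyte array each, and took the values 0.03 and 0.05 without hepatocyte array 1 and hepatocyte array 2, respectively. Ccn1 differed by 0.03 ± 0.19 and Ccn2 by −0.08 ± 0.14 (SE, both limma adjusted p = 1.00). The 95% intervals of the 9 reached from −0.57 to 0.47, or 0.674-fold to 1.39-fold.

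SHPC clusters of transplanted livers and hepatocytes of livers without transplantation differ in cell type and in transplantation at once, and the comparison shares its arrays with both others. In limma 186 of 15793 genes passed (1.18%, with 10.4% at an unadjusted p under 0.05) and 0 of the 9 did, by either measure. Amotl2 had the largest difference, at −0.28 ± 0.18, followed by Ccn2 at 0.22 ± 0.14 and Ankrd1 at −0.21 ± 0.15 (SE, limma adjusted p = 0.647, 0.650 and 0.678). Ankrd1 was the only 1 of the 9 genes whose arrays lay apart in any of the 3 comparisons, with all 3 transplanted arrays below all 3 hepatocyte arrays, as held for 6.64% of all tested genes; 19.2% lay apart in either direction. A higher mean was found in 3 of the 9 genes and in 49.7% of all genes, and in 5 of the 9 after median centring. Amotl2 was at −0.10 without hepatocyte array 2. Yap1 differed by −0.17 ± 0.13 and Lats2 by 0.00 ± 0.18. The intervals of the 9 genes reached from −0.69 to 0.55, or 0.62-fold to 1.46-fold.

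The size of the differences was ordinary for these arrays. The largest of the 9 was 0.30, 0.20 and 0.28 in the 3 comparisons, and 24.4%, 26.5% and 27.8% of all tested genes differed by more. The median range over the 9 arrays was 0.77 for all tested genes, and of the 9 genes Amotl2 exceeded it.

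The rest of the Hippo pathway was followed in 37 further genes, of which 33 were measured and tested, and 0 of them passed in any comparison. The kinase cassette holds Stk3 and Stk4, the kinases that activate LATS, the adaptor genes Sav1 and Mob1b, the parallel kinases of the Map4k and Taok families and Rassf1. Of its 12 tested genes 9 were higher and 3 lower in SHPCs of transplanted livers than in SHPCs, with a median of 0.20, and 5 were higher and 7 lower in SHPCs than in hepatocytes, with a median of −0.09. Sav1 differed by 0.34 ± 0.28 and Stk4 by 0.24 ± 0.14 between the SHPC groups (SE, limma adjusted p = 0.738 and 0.705), and Taok3, which had the smallest p of the cassette there, by 0.30 ± 0.15 (0.705). Over all 33 genes, 23 were higher and 10 lower in transplanted livers, with a median of 0.08 against 0.02 for all genes, and without both arrays that stood apart 18 were higher and the median was 0.04. After median centring 28 were higher, with a median of 0.19 against 0.12 for all genes.

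Slmap and Tead2 had the smallest p of the 33 genes between the SHPC groups. Slmap codes for a subunit of the STRIPAK phosphatase complex, which switches off the kinases at the top of the cascade. It was at 7.05, 6.26 and 6.94 in SHPCs and at 7.12, 7.33 and 7.49 in SHPCs of transplanted livers, a difference of 0.56 ± 0.23 (SE, limma adjusted p = 0.643). All 3 arrays of transplanted livers lay above those of SHPCs, as held for 10.6% of all genes tested, but hepatocyte arrays, at 7.31, 7.14 and 6.78, overlapped both, and without SHPC array 2 the difference was 0.32. Tead2, a second TEAD factor gene, was at 4.68, 5.10 and 4.90 in hepatocytes, at 4.87, 4.66 and 4.75 in SHPCs, and at 4.06, 4.34 and 4.59 in SHPCs of transplanted livers. The transplanted arrays lay below every other array, by −0.43 ± 0.17 against SHPCs and −0.56 ± 0.17 against hepatocytes (SE, limma adjusted p = 0.642 and 0.219), as held for 5.23% and 6.64% of all genes tested. Without both arrays that stood apart these differences were −0.48 and −0.46. The levels of Tead3 were 4.15 to 4.38 in SHPCs, 4.27 to 4.34 in transplanted livers and 4.31 to 4.58 in hepatocytes, and the groups overlapped.

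The scaffold genes at membranes and junctions, among them Wwc1 (KIBRA), Amot and Ajuba, gave 6 higher and 4 lower of 10 tested between the SHPC groups, and 4 higher and 6 lower in SHPCs against hepatocytes. Wwc1, a partner of merlin, had the smallest p of all 33 genes in the latter comparison, at −0.23 ± 0.12 (SE, limma adjusted p = 1.00), with overlapping arrays. The protein turnover genes Csnk1d, Csnk1e and Btrc, which mark YAP for degradation, differed by at most 0.15 there. In SHPCs of transplanted livers against hepatocytes, Csnk1d differed by 0.36 ± 0.16 and Map4k4 by 0.29 ± 0.14 (SE, limma adjusted p = 0.468 and 0.511).

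Further targets of YAP and TAZ known from many cell types formed a list of 20, of which 14 were tested; Ptpn14 and Ajuba among them are also counted with the Hippo genes. None passed, and each comparison split them into 7 higher and 7 lower, with medians of 0.00, −0.01 and 0.00. The smallest p between SHPCs and hepatocytes belonged to Axl, a receptor kinase gene that macrophages also express. Axl was at 7.00, 6.75 and 6.66 in hepatocytes, at 6.17, 6.17 and 6.66 in SHPCs, and at 6.55, 6.61 and 6.78 in SHPCs of transplanted livers. SHPC arrays 1 and 2 were the low values, and the difference from hepatocytes was −0.47 ± 0.17 (SE, limma adjusted p = 0.914). In the same comparison the kinase gene Nuak2 was at 0.37 ± 0.17 and Crim1, a gene of a membrane protein that binds growth factors, at −0.28 ± 0.14 (SE, both limma adjusted p = 1.00). Between the SHPC groups the Golgi protein gene Fjx1 was at −0.49 ± 0.22, the matrix gene Ccdc80 at 0.35 ± 0.19 and Axl at 0.32 ± 0.17 (SE, limma adjusted p = 0.689, 0.705 and 0.705). SHPC array 2 held Fjx1 at 5.21, where the other 8 arrays lay between 4.01 and 4.42. Without both arrays that stood apart Fjx1 was at −0.20, Ccdc80 at 0.18 and Axl at 0.23. Beside Axl, 9 of 10 Kupffer cell markers were lower in SHPCs than in hepatocytes, with a median of −0.30. In transplanted livers 10 of 10 were higher than in SHPCs, with a median of 0.59, and 0 passed in either comparison. Without both arrays that stood apart these medians were −0.21 and 0.28. The part of Kupffer cells in the Axl values was not tested.

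**Figure D3:**
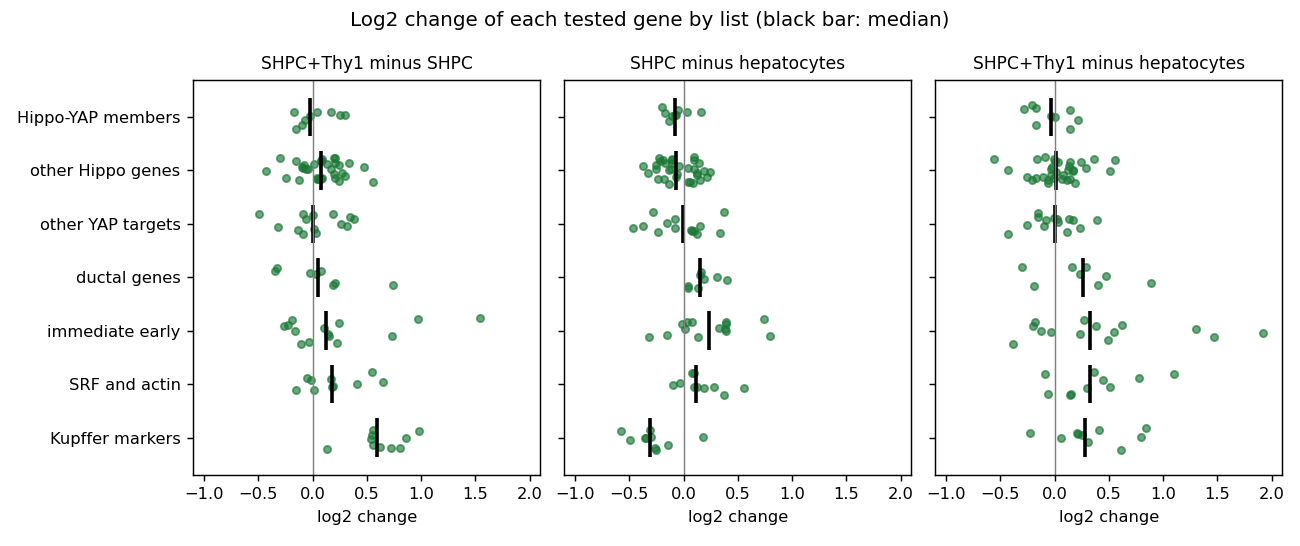
Log2 change of every tested gene in each list (points) for the 3 comparisons, with the list's median as a black bar; vertical scatter within a list carries no value, and a gene in several lists is drawn in each. The 9 Hippo-YAP genes, the other Hippo genes and the other YAP targets centre near 0 (medians between −0.08 and 0.08), while Zfp36, Egr1 and Dusp1 of the immediate early list reach 1.30, 1.47 and 1.92 in the right panel.

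Bile duct genes that respond to YAP in hepatocytes, such as Sox9, Notch2 and Jag1, formed a list of 8, all tested. Krt7, Krt19, Epcam, Sox9 and Spp1 of this list are also counted among the bile duct markers above. In SHPCs against hepatocytes all 8 had the higher mean, with a median of 0.15 and 0 passing; without both arrays that stood apart 6 were higher and the median was 0.21. Krt19, a keratin of bile ducts, was at 3.97, 4.31 and 3.67 in hepatocytes, at 4.45, 4.34 and 4.34 in SHPCs, and at 4.34, 4.57 and 4.46 in SHPCs of transplanted livers. Both SHPC groups lay above every hepatocyte array, by 0.40 ± 0.17 and 0.47 ± 0.17 (SE, limma adjusted p = 1.00 and 0.324), where 2.72% and 12.6% of all genes lay apart in this way. Epcam, an adhesion molecule of bile ducts and progenitors, was at 5.03, 5.40 and 4.66 in hepatocytes, at 5.56, 4.57 and 5.41 in SHPCs, and at 6.21, 5.93 and 5.63 in SHPCs of transplanted livers. The transplanted arrays lay above all others, by 0.74 ± 0.28 over SHPCs and 0.89 ± 0.28 over hepatocytes (SE, limma adjusted p = 0.634 and 0.257). Arrays lay higher in this way for 10.6% and 12.6% of all genes against SHPCs and hepatocytes taken singly. Without both arrays that stood apart the transplanted group's Epcam and Krt19 differences from hepatocytes were 1.08 and 0.63 and passed in limma (adjusted p = 0.0226 and 0.0352). In that fit 576 of 15710 tested genes passed, against 186 of 15793 with all arrays, and neither gene passed in any other alternative. The Epcam difference between the SHPC groups went from 0.74 to 0.43 without those arrays and did not pass. Sox9, the transcription factor gene of bile duct cells, had a mean of 4.24 in hepatocytes, 4.28 in SHPCs and 3.94 on the transplanted arrays. Its difference between the SHPC groups was −0.33 ± 0.15 (SE, limma adjusted p = 0.695), opposite in sign to that of Epcam. The keratin gene Krt7, above the array's median on all 9 arrays, also had a lower mean in transplanted livers. It differed by −0.35 ± 0.23 from SHPCs and −0.19 ± 0.23 from hepatocytes (SE, limma adjusted p = 0.715 and 0.804). Without both arrays that stood apart the Krt7 difference between the SHPC groups was −0.08. Of the 7 bile duct markers, which include Cftr and Sctr from outside this list, 5 were higher and 2 lower in transplanted livers than in hepatocytes. Their median was 0.35 and 0 passed. The part of bile duct cells in these values was not tested.

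Ccn1 is also an immediate early gene, switched on within a short time of a stimulus, so 14 other measured genes of that class were set beside it. Zfp36, which codes for a protein that destabilises inflammatory mRNAs, rose in SHPCs of transplanted livers over hepatocytes, from 7.36, 7.09 and 7.67 to 8.54, 8.85 and 8.63. The groups lay apart, as held in this direction for 12.6% of all genes, by 1.30 ± 0.19 or 2.47-fold (SE, limma adjusted p = 0.0158). Zfp36 was the 1 gene of the list that passed, where 1.18% of all genes did. Its call ended after median centring and without each of transplanted arrays 1, 2 and 3 and hepatocyte array 1 (limma adjusted p = 0.0591 to 0.0907), while its difference stayed between 1.13 and 1.45 in these and the other alternatives.

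Egr1 and Dusp1, named after their values were seen, pointed the same way as Zfp36. Egr1, a zinc finger factor gene, was at 6.87, 6.33 and 7.23 in hepatocytes, at 8.06, 7.00 and 7.60 in SHPCs, and at 8.59, 8.21 and 8.04 in SHPCs of transplanted livers. Dusp1, which codes for a phosphatase of MAP kinases, was at 8.71, 7.47 and 7.49, at 9.22, 7.69 and 7.92, and at 9.31, 10.30 and 9.83 in the same order. Against hepatocytes the transplanted group's values were 1.47 ± 0.30 for Egr1 and 1.92 ± 0.45 for Dusp1 (SE, limma adjusted p = 0.0505 and 0.0952). The arrays of both genes lay apart, as held in this direction for 12.6% of all genes. Egr1 passed in 8 of its 18 alternatives, with cyclic loess (limma adjusted p = 0.00721) and the replicate block (0.00749) giving the lowest p, and Dusp1 in 5 of 18, among them cyclic loess (0.0325) and the replicate block (0.0363). Between the SHPC groups Zfp36 differed by 0.97 ± 0.19, Dusp1 by 1.54 ± 0.45 and Egr1 by 0.73 ± 0.30 (SE, limma adjusted p = 0.182, 0.457 and 0.654), and in SHPCs against hepatocytes Nr4a1, a nuclear receptor gene, by 0.80 ± 0.27 (0.815). Without both arrays that stood apart the Egr1 difference between the SHPC groups was 0.45. Over the list, 9 of 14 genes were higher in transplanted livers than in hepatocytes, with a median of 0.32, while Fos was at 0.23 ± 0.25 and Myc at −0.03 ± 0.25 (SE, limma adjusted p = 0.793 and 0.978). Of the Kupffer cell markers 9 of 10 were higher than in hepatocytes, with a median of 0.28, and Marco passed at 0.80 ± 0.16 (SE, limma adjusted p = 0.0456). Marco's call ended in 14 of its 18 alternatives. The mean level of these markers was 7.97 to 8.22 on transplanted arrays, 6.86 to 7.78 in SHPCs and 7.39 to 7.94 in hepatocytes, with none of the 10 below the array's median on any array, and their part in the values of Zfp36, Egr1 and Dusp1 was not tested. Without both arrays that stood apart 6 of the 10 markers were higher than in hepatocytes, with a median of 0.08, and Zfp36 was at 1.16.

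The last list was of SRF and actin genes, with Srf itself and Mrtfa among them. SRF is the serum response factor, which shares many targets with YAP. Of 15 genes listed, 10 were tested and 0 passed. Of these 8 were higher in SHPCs of transplanted livers than in hepatocytes, with a median of 0.33. Tagln, a gene of a smooth muscle actin-binding protein, was at 4.50, 4.88 and 4.75 in hepatocytes, at 5.71, 5.00 and 5.08 in SHPCs, and at 5.73, 6.39 and 5.32 in SHPCs of transplanted livers. Both SHPC groups lay above the hepatocyte arrays, by 0.56 ± 0.28 and 1.10 ± 0.28 (SE, limma adjusted p = 1.00 and 0.119), where 2.72% and 12.6% of all genes lay apart in this way. Flna, the filamin that crosslinks actin, was higher on all 3 transplanted arrays than on any other array. It differed by 0.41 ± 0.16 from SHPCs and 0.51 ± 0.16 from hepatocytes (SE, limma adjusted p = 0.624 and 0.227). Against each group taken singly, 10.6% and 12.6% of all genes lay apart in this way. Without SHPC array 2 the Flna difference from SHPCs was 0.28. Myl9, a myosin light chain gene, lay at 0.65 ± 0.30 over SHPCs (SE, limma adjusted p = 0.695), and against hepatocytes at 0.78 ± 0.30, or 0.35 without hepatocyte array 2. Between the SHPC groups 7 of the 10 genes were higher with a median of 0.17, which became 6 genes and 0.01 without both arrays that stood apart, and 5 genes and 0.01 after cyclic loess. Stellate cell markers were higher in transplanted livers in 8 of 8 tested genes against SHPCs and in 6 of 8 against hepatocytes. The part of stellate cells in the values of this list was not tested.

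**Figure D4:**
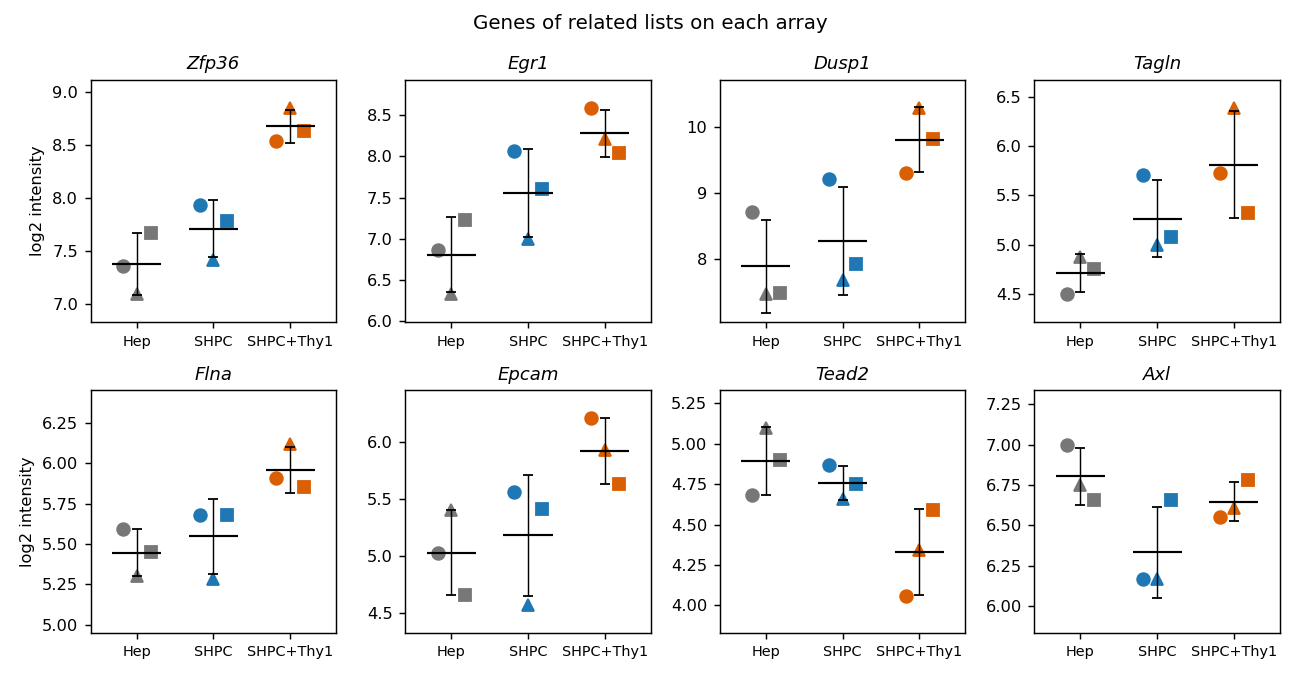
Log2 intensity of 8 genes from the related lists on each array, in hepatocytes (grey), SHPCs (blue) and SHPCs of transplanted livers (orange), with array numbers as circles (1), triangles (2) and squares (3), bars at group means and whiskers at the SD over 3 arrays. Zfp36, Dusp1, Flna and Epcam lie higher and Tead2 lower on all 3 arrays of transplanted livers than on the other 6, and Zfp36 against hepatocytes is the 1 difference among them that passed in limma (adjusted p = 0.0158). Against SHPCs and hepatocytes taken singly, 10.6% and 12.6% of all tested genes lay higher in this way, and 5.23% and 6.64% lower.

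The genes whose profile over the 9 arrays was nearest to Yap1, Ccn1 and Ccn2 were found by the root mean square difference of log2 values, each centred on its gene's mean. For Yap1 they were Enah, an actin regulator gene, at 0.0392, Cacna1d at 0.0532, Taf4b at 0.0535, Vav3 at 0.0629 and Shroom2 at 0.0679, where the median over all genes was 0.255. For Ccn2 they were C5, Ecd, Rsrc2, Cluap1 and Enox2, at 0.0763 to 0.0864, and for Ccn1 they were Or1e21b, Ccdc92, Mlxip, Prss40 and Ncam1, at 0.0800 to 0.0893. No gene of the Hippo or YAP target lists was among these 15. Such a distance is small for any gene that varies little, and Yap1, Ccn1 and Ccn2 had an SD over the 9 arrays of 0.125, 0.211 and 0.183.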

How the data were processed

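The 9 genes and the lists were chosen with earlier results of these data known. The deposited table holds intensity values on the linear scale for 36685 probe sets, made with RMA per the submitters' processing notes. The version of RMA and the genome build are not given in the sources used here. The linear scale was inferred from the range of the values. Log2 was taken here. Of the probe sets 18511 carried 1 gene symbol, 575 several and 17599 were unnamed here; the brightest probe set stood for a gene (each of the 9 genes had 1). A gene was tested if at least 3 arrays lay above that array's 25th percentile, taken over every probe set.

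The test was limma (3.58.1, R 4.3.3). It fitted 3 group means to the 9 arrays, leaving 6 residual degrees of freedom before eBayes, and p-values were adjusted by Benjamini and Hochberg over the 15793 genes, at 0.05; the script was tested on simulated data. From each list of related genes, those that passed in a comparison were picked out, or the 3 with the smallest p. Not all of those are described, and further examples were chosen after their values were seen. Wwtr1 and the other 8 genes were named regardless. Profile neighbours are the 5 nearest genes, leaving out those known only by a numbered locus.

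Deviations of same-numbered arrays from their group means correlated at 0.526, 0.705 and 0.341 between SHPCs and hepatocytes. Both arrays that stood apart carry the same number, and deviations within a group balance each other, so these correlations are not independent. The check therefore cannot decide whether the arrays are paired. The labels state no pairing, and the main test used no block. Deviations of the transplanted arrays correlated with those of same-numbered arrays of the other groups at −0.0936 to 0.00234. Alternatives were median centring, renewed quantile normalization, cyclic loess, no filter, the mean of probe sets, the compared groups alone, a replicate block, an intensity trend, and leaving out arrays. The number of arrays limits the precision. Promoter windows are RefSeq's, of assembly GRCr8.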

Additional observations from a re-analysis of the deposited data

How the results depend on the processing

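None of the 9 Hippo-YAP genes passed in any of the 3 comparisons under any alternative run, where the smallest limma adjusted p over the alternatives was 0.461 between the SHPC groups, 0.686 in SHPCs against hepatocytes and 0.368 in SHPCs of transplanted livers against hepatocytes. The number of all genes that passed moved widely. In that order of comparisons it was 1, 10 and 186, and became 0, 0 and 47 after median centring, 17, 17 and 328 after renewed quantile normalization, 40, 34 and 439 after cyclic loess, 0, 0 and 304 in fits of the compared groups alone, and 23, 61 and 576 without SHPC array 2 and hepatocyte array 2. With the replicate number as a block it was 64, 35 and 367, and 77 for SHPCs against hepatocytes in a blocked fit of those arrays alone, which was added after the data were seen; the block changed the call of 0 of the 9 genes. Leaving out 1 array at a time gave 0 to 24, 0 to 53 and 31 to 473 genes. The cause of these moves was not tested. No filter, the mean of probe sets and an intensity trend kept each count within 1.5 times.

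Signs turned 20 times in 7 of the 9 genes, 14 of them on leaving out 1 array, and the turned values were at most 0.12 in size. Between the SHPC groups, Tead1 and Ccn1 turned to 0.08 and 0.04 with median centring, Nf2 to −0.02 with cyclic loess and Ccn1 to 0.05 without both arrays that stood apart. Against hepatocytes, Ccn1 in transplanted livers turned to 0.06 with median centring and to 0.12 without those arrays. Leaving out 1 array, the ranges were −0.18 to 0.05 for Ccn1 and −0.10 to 0.05 for Tead1 between the SHPC groups. In SHPCs against hepatocytes they were −0.23 to 0.09 for Wwtr1, −0.10 to 0.19 for Ccn1, −0.19 to 0.05 for Ankrd1, −0.23 to 0.05 for Amotl2 and −0.29 to 0.03 for Lats2, and for Ccn1 in transplanted livers against hepatocytes −0.16 to 0.12.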
